A study of Mus musculus with 6 samples.

Results

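Osteoclasts are bone-resorbing cells that arise when precursors of the macrophage lineage fuse. Described here are 10 genes of that programme, among the 17313 genes measured by RNA-seq in cultured mouse macrophages. They were fixed by symbol, with earlier results of these data known, as genes of fusion, resorption and RANK signalling. Tnfrsf11a, Nfatc1 and Oscar stand for signalling, and Dcstamp and Ocstamp for fusion. Acp5, Ctsk and Mmp9 stand for matrix breakdown, and Atp6v0d2 and Clcn7 for acid secretion. All 10 were found, each as a single entry, and 8 of them reached 10 in 3 or more libraries and entered the test. Ocstamp and Oscar did not reach that level.

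The cells were bone marrow-derived macrophages, grown in culture from the marrow of C57BL/6 mice. All mice carried floxed Hdac2 alleles (Hdac2 fl/fl), received LLC1 cells, a mouse lung carcinoma line, by intravenous injection, and gave marrow on day 20. The Cre-negative mice form the WT group (3 libraries). Mice that also carried LysM-Cre, in which the Lyz2 locus drives the recombinase in myeloid cells, form the KO group (3 libraries). Hdac2 encodes a histone deacetylase, and the design asks how its loss acts on macrophages of tumour-bearing mice. The age and sex of the mice, the culture medium and the deleted exon are not given in the sources used here. Whether the libraries of a group stem from different mice is not stated in the labels, and the spread behind the p-values may therefore be technical in part.

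RANK, the receptor encoded by Tnfrsf11a, binds RANK ligand made by stromal cells and osteoblasts, while osteoprotegerin, the product of Tnfrsf11b, traps that ligand. RANK signalling, together with receptors that pair with ITAM adaptors, switches on NFATc1, which drives fusion genes, the acid phosphatase TRAP, cathepsin K and the proton pump. Macrophages grown with M-CSF carry RANK and are a usual starting point for making osteoclasts in culture. Several of these genes are also active in macrophages that are not osteoclasts.

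The authors' values are called scaled counts here, because they look like reads per gene that were multiplied by a library factor and then rounded. Library totals ran from 5704313 to 5837994. Hdac2 (chromosome 10, 36974544 to 37001889, mm10) had 534, 482 and 518 across WT 1, WT 2 and WT 3, and 392, 387 and 375 across KO 1, KO 2 and KO 3. Every triple of values below follows this library order. Mean Hdac2 in KO was thus 0.752 times that in WT. The log2 difference of Hdac2 was -0.41 with all libraries, -0.38 without WT 1 and -0.47 with WT 1 as the only WT library. Its limma adjusted p was 0.158 with all libraries and 0.014 without WT 1. The macrophage markers were all 10 present, summing to 13079 to 13756 in WT and 12430 to 12799 in KO. Adgre1, Cd68, Csf1r, Cd14, Itgam, Fcgr1 and Lyz2 had every KO library below every WT library, with log2 differences from -0.25 (Cd14) to -0.09 (Csf1r). Mertk (0.18), Mrc1 (0.06) and Cd163 (0.02) overlapped between the groups. Of all genes tested, 13.4% lay wholly below WT, and 23.4% of those with a mean of at least 500. Of 8 markers of mature osteoclasts, 5 are members here. Ctsk, Acp5, Atp6v0d2 and Itgb3 were the 4 that entered the test. Ocstamp and Car2 were too low for it, and Oscar stayed under 10 in every library. Calcr, the calcitonin receptor, had no entry in the table. These markers summed to 2004 to 2322 in WT and 1629 to 1746 in KO, with Atp6v0d2 the largest part. WT 1 stood apart from the other WT libraries in sex-linked genes. Xist, expressed from the inactive X chromosome of female cells, was at 5243 for WT 1, at 0 for WT 2 and at 74 for WT 3, and between 3298 and 4997 for the KO libraries. The result of each tested member, and the counts and median of each gene list, are therefore also given without WT 1 and with WT 1 as the only WT library. The Y-linked gene Ddx3y had 44, 308 and 745 across WT and 10, 0 and 0 across KO. Kdm5d, also Y-linked, had 34, 473 and 482 across WT and 5, 0 and 0 across KO. WT 2 and WT 3 thus had the pattern of male cells and the KO libraries that of female cells. WT 1 lay mostly with the KO libraries but held some Y-linked signal. Without WT 1, genotype and this sex-linked pattern coincide and cannot be told apart. With all libraries they coincide in part, because WT 2 and WT 3 had the male pattern and no KO library did. The part of that pattern in the differences with all libraries was not tested.

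Regulatory sequence was available for 5 of the 10 genes (Acp5, Clcn7, Ctsk, Oscar and Tnfrsf11a) in the RefSeq promoter table (GRCm38.p6, the same assembly as mm10). The 250 bases before the start site are shown for Acp5 and Clcn7, which were lower in every KO library than in every WT library, and for Ctsk, which was not. Acp5 has several RefSeq start sites, and the windows of a distal one (chr9:22135747-22135996, minus strand) and a more proximal one (chr9:22131866-22132115, minus strand) are given. The Clcn7 window shown is chr17:25133141-25133390 (plus strand) and the Ctsk window is chr3:95498960-95499209 (plus strand). None of these windows overlaps an annotated exon. Capitals mark the GC box GGGCGG (or CCGCCC on the other strand), the core motif of SP1-family factors, and the E-box CACGTG bound by MITF and TFE factors.
Acp5 distal: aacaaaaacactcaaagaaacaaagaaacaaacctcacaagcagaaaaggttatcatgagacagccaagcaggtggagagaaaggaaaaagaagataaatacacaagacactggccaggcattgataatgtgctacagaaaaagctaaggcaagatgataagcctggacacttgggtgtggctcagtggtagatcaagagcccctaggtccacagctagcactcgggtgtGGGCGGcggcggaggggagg
Acp5 proximal: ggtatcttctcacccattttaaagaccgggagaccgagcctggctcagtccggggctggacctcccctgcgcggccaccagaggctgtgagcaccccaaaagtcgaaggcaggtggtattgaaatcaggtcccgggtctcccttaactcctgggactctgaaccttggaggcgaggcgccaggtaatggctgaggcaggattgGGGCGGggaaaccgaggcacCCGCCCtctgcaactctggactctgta
Clcn7: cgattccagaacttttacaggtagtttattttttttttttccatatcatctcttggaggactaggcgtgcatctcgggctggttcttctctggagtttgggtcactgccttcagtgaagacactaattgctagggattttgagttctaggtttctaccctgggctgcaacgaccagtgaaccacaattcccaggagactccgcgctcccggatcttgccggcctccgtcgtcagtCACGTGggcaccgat
Ctsk: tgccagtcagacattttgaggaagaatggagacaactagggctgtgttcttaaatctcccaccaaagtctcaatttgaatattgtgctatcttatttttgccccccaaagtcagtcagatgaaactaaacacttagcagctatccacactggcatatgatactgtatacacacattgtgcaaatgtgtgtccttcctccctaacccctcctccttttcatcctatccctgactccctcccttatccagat

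A GC box stood 20 bases before the distal Acp5 start. In the proximal window GC boxes began 47 and 27 bases before the start. Among all 32851 promoter windows of this length, 32.7% held a GC box. The Clcn7 window shown had no GC box and carried CACGTG 15 bases before its start, a motif found in 6.02% of windows. Ctsk had neither. The window of Tnfrsf11a, whose groups overlapped, held 4 GC boxes. The NFAT core GGAAA, present in 55.6% of windows, began 167 bases before the distal and 41 bases before the proximal Acp5 start, and its reverse complement 213 bases before the Clcn7 start. The Oscar window held 3 NFAT cores and 1 match to the reverse complement of CATGTG (12.3% of windows), while Ctsk and Tnfrsf11a held neither. A further Acp5 window, not shown (chr9:22130599-22130848), overlaps an Acp5 exon. It held 1 GC box, 2 NFAT cores and the reverse complement of CATGTG 90 bases before its start. A further Clcn7 window, not shown (chr17:25136381-25136630), overlaps a Clcn7 exon and held CATGTG 41 bases before its start. The AP-1 motif TGANTCA (6.75% of windows) and the PU.1 motif GAGGAAGT (2.44%) had no match in any window of the 5 genes. All motifs were searched on both strands. The 6 motifs did not overlap one another in the windows shown. These matches describe the letters of the windows and do not locate a bound factor.

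Tnfrsf11a (chromosome 1, 105780718 to 105847981), which encodes RANK, was at 1096, 1367 and 1224 scaled counts in WT 1, WT 2 and WT 3. In KO 1, KO 2 and KO 3 it was at 946, 949 and 1160. KO 3 lay within the WT range, so the groups overlapped. The log2 difference, KO minus WT, was -0.27 ± 0.11 (SE), with a limma adjusted p of 0.210.

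Nfatc1 (chromosome 18, 80606205 to 80713071), the transcription factor that acts as master regulator of osteoclast formation, had 892, 944 and 881 across WT and 959, 952 and 975 across KO. Every KO library lay slightly above every WT library, the only member in that direction among the 8 tested. The gap between the nearest libraries, WT 2 and KO 2, was small beside the spread of the WT libraries. The log2 difference was 0.09 ± 0.045 (SE), or 0.15 under cyclic loess, which removes shifts that depend on abundance, and its limma adjusted p was 0.284. Under upper-quartile scaling the groups overlapped. Oscar (chromosome 7, 3609813 to 3616157), a receptor that gives costimulation through an ITAM adaptor, had 1, 0 and 1 across WT and 5, 2 and 1 across KO, too low to be tested.

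Of the fusion genes, only Dcstamp was high enough to be tested, and the ratio of its highest to its lowest library was the largest among the tested members. Dcstamp (chromosome 15, 39745930 to 39760938), which encodes the transmembrane protein DC-STAMP needed for cell-cell fusion of osteoclasts and giant cells, was at 143, 615 and 472 in WT. In KO it was at 28, 58 and 147. WT 2 and WT 3 were high, KO 1 and KO 2 were low, and WT 1 and KO 3 met in between at nearly the same value. Means were 77.7 ± 61.9 for KO and 410 ± 242 for WT (SD, n = 3 each), a ratio of 0.189. Its log2 difference was -2.46 ± 0.76 (SE), with a limma adjusted p of 0.158.

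Ocstamp (chromosome 2, 165393760 to 165400405), the related protein OC-STAMP, had 6, 11 and 11 across WT and 0, 5 and 6 across KO. WT 1 and KO 3 tied, as WT 1 and KO 3 nearly did for Dcstamp. With no filter on low values the log2 difference of Ocstamp was -1.53 ± 0.79 (SE) and its limma adjusted p was 0.311.

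Among the genes of matrix breakdown, Acp5 separated the groups most clearly. Acp5 (chromosome 9, 22126727 to 22135711), which encodes tartrate-resistant acid phosphatase, the classical stain for osteoclasts, had 163, 243 and 276 across WT and 94, 110 and 98 across KO. The KO libraries lay close together and all below WT 1, the lowest of the WT libraries. Averaged over libraries, KO had 0.443 times the WT level, and 0.618 times that of WT 1 alone. The log2 difference was -1.14 ± 0.20 (SE), with a limma adjusted p of 0.158.

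Mmp9 (chromosome 2, 164940780 to 164955850) is a gelatinase secreted by osteoclasts, macrophages and neutrophils. Its values were 252, 911 and 666 in WT and 127, 179 and 324 in KO. KO 3 exceeded WT 1, so the groups overlapped, and WT 1 lay far nearer to the KO libraries than to WT 2 or WT 3. The log2 difference was -1.45 ± 0.55 (SE), with a limma adjusted p of 0.184, and it shrank to -0.37 with WT 1 as the only WT library. Neutrophil markers were scarce: 8 of 10, among them Ngp, Ltf and Mpo, had no entry in the table, and the other 2 summed to 76 to 113 in WT and 75 to 90 in KO.

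Ctsk (chromosome 3, 95499256 to 95509362), the cysteine protease that cleaves bone collagen, did not go with Acp5. It had 185, 159 and 133 across WT and 217, 183 and 152 across KO, with overlapping groups. The log2 difference was 0.21 ± 0.18 (SE), with a limma adjusted p of 0.508, and it was -0.02 with WT 1 as the only WT library. Fibroblasts also express Ctsk. The 10 markers of stroma and osteoblasts, of which Bglap had no entry in the table, summed to 12357, 5508 and 5414 in WT and to 16570, 14989 and 13063 in KO. WT 2 and WT 3, with the lowest of these sums, were the libraries with the highest Dcstamp, Mmp9, Acp5 and Atp6v0d2 values. The part of stroma in the values of these members was not tested.

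Both genes of acid secretion were lower in every KO library than in every WT library. Atp6v0d2 (chromosome 4, 19876841 to 19922605), the d2 subunit of the vacuolar proton pump, which also takes part in fusion, was at 1144, 1395 and 1465 in WT. In KO it was at 854, 895 and 927. Averaged over libraries, KO had 0.668 times the WT level. The log2 difference was -0.57 ± 0.099 (SE), with a limma adjusted p of 0.158, and WT 1, though the lowest WT library, lay clear of all KO libraries.

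Clcn7 (chromosome 17, 25133391 to 25162104), the chloride-proton exchanger that balances charge during acid secretion and serves lysosomes in most cells, had 1387, 1639 and 1458 across WT and 1251, 1258 and 1319 across KO. The difference was small, KO having 0.854 times the mean WT level. On the log2 scale it was -0.22 ± 0.071 (SE), with a limma adjusted p of 0.158, and it was -0.14 under cyclic loess and -0.12 with WT 1 as the only WT library. In bulk RNA such as this, fewer cells of a kind and less RNA per cell cannot be told apart for any of these genes.

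**Figure D1:**
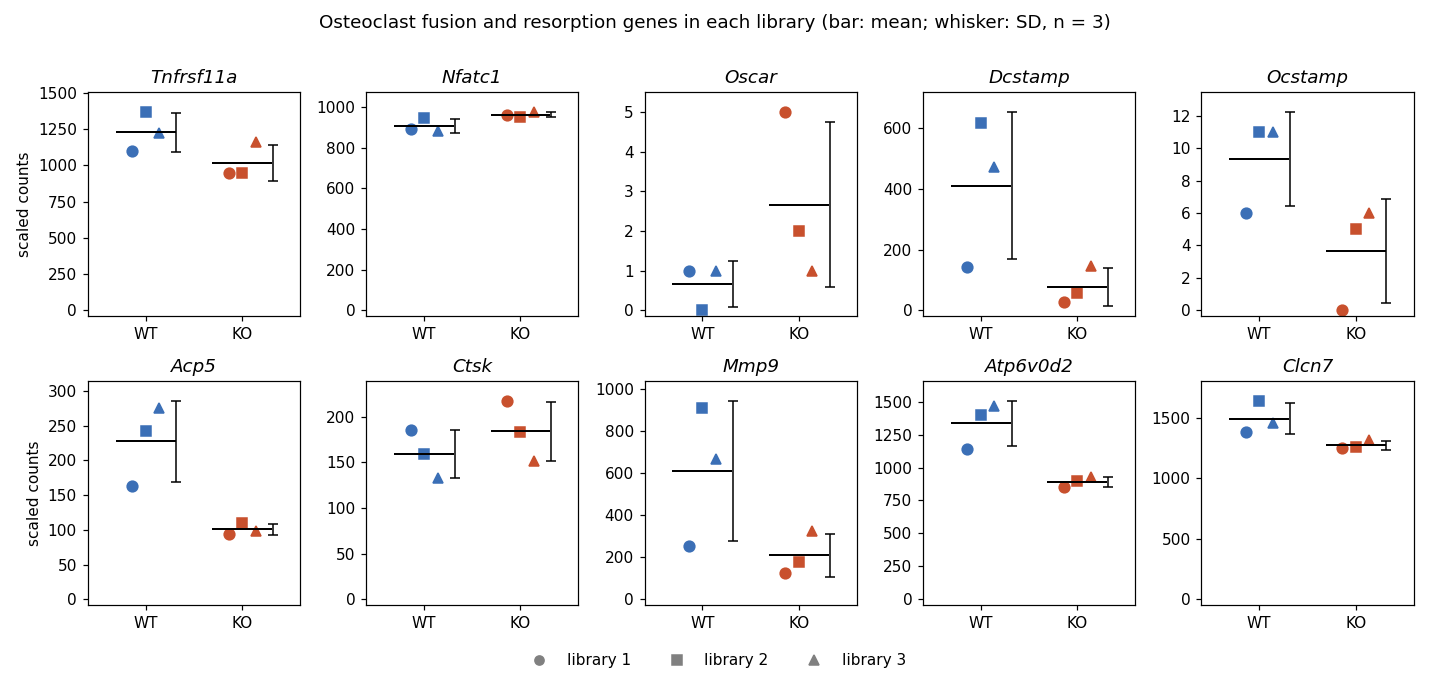
Scaled counts (vertical axes, from 0) of the 10 genes in the 3 WT and 3 KO libraries; markers give the library number, bars the mean and whiskers the SD. Acp5, Atp6v0d2 and Clcn7 have all KO libraries below all WT libraries, while for Dcstamp and Mmp9 WT 1 lies below KO 3 and apart from WT 2 and WT 3.

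No member passed the test with all libraries. With limma and Benjamini-Hochberg adjustment over 13260 genes, 0 of the 8 tested members and 0 of all genes (0%) had an adjusted p under 0.05 in either direction. At an unadjusted p under 0.05, 5 members were lower (Acp5, Atp6v0d2, Dcstamp, Clcn7 and Mmp9) and 0 higher, beside 9.68% of all genes lower and 14.7% higher. The KO range lay wholly below the WT range in 3 members and wholly above it in 1, against 13.4% and 16.1% of all genes. An exact permutation test of a single gene cannot give a two-sided p under 0.1 with 3 libraries against 3, and it gave 0.1 for Acp5, Atp6v0d2, Clcn7 and Nfatc1. The median log2 difference of the 8 members was -0.42, beside -0.0046 for all genes tested.

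The background itself moved with abundance, which bears on how these counts are read. Genes with a mean under 100 scaled counts had a median log2 difference of 0.23, and those at 1000 or more a median of -0.09. Among the latter, 32.2% had all KO libraries below all WT libraries and 27.2% were lower at an unadjusted p under 0.05. Clcn7, Tnfrsf11a and Atp6v0d2 belong to that most abundant class. The separation of groups seen for Clcn7 was thus common among genes of its level. Acp5, Dcstamp and Mmp9 belong to the class from 100 to 500, where the corresponding shares were 10.4% and 6.32% and the median difference was 0.0072.

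Leaving out WT 1 gave calls to 5 members, all lower in KO, beside 5.07% of all genes called lower and 12.8% called higher. In that fit Acp5 had a log2 difference of -1.36 ± 0.12 (SE) with a limma adjusted p of 0.0014. Atp6v0d2 stood at -0.68 ± 0.060 (adjusted p = 0.0014), Mmp9 at -2.00 ± 0.39 (adjusted p = 0.021), Dcstamp at -3.09 ± 0.65 (adjusted p = 0.026) and Clcn7 at -0.28 ± 0.069 (adjusted p = 0.045). Tnfrsf11a, at -0.35 with an adjusted p of 0.084, Nfatc1, at 0.08, and Ctsk, at 0.32, were not called. In that fit 6 members lay wholly below WT, beside 25.2% of all genes, and leaving out KO 3 in its place also gave 6, beside 25.4%. The WT libraries of the fit without WT 1 are those with low Xist and the highest Y-linked values. These calls therefore compare KO with libraries that differ from it in the sex-linked genes as well.

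When WT 1 stood alone against KO, with its unknown spread taken to equal that of the KO group, 0 members were called, as were 0 of all genes (0%). Acp5 then differed by -0.69 ± 0.15 (SE) and Atp6v0d2 by -0.36 ± 0.070 on the log2 scale. They were the 2 members lower at an unadjusted p under 0.05, beside 1.06% of all genes. Dcstamp, at -1.19 ± 0.93, and Mmp9, at -0.37 ± 0.54, had errors nearly as large as the difference or larger. Tnfrsf11a stood at -0.11 ± 0.14 and Nfatc1 at 0.11 ± 0.054. The direction of every tested member except Ctsk was the same for each choice of WT libraries.

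**Figure D2:**
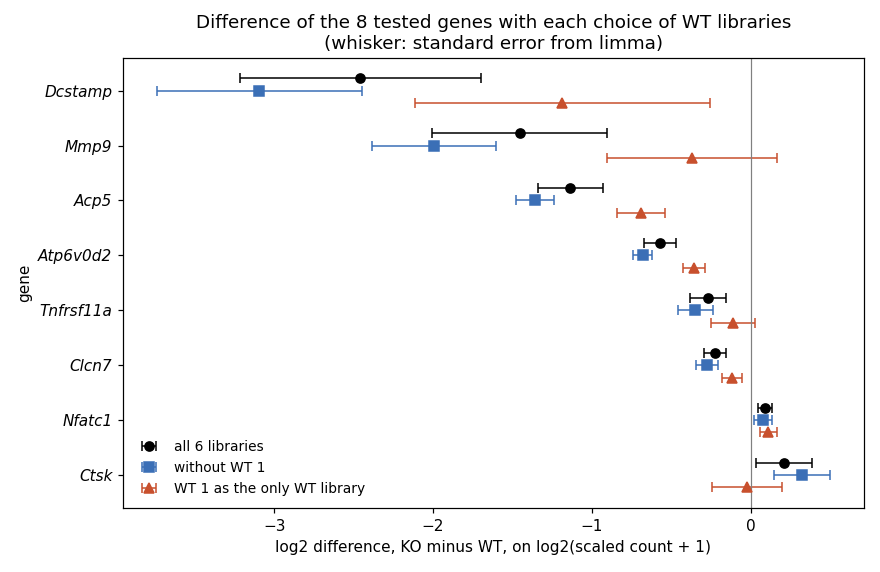
Log2 difference, KO minus WT (horizontal axis), of the 8 tested genes with all libraries, without WT 1 and with WT 1 as the only WT library; whiskers are the standard error from limma. Acp5 and Atp6v0d2 stay below 0 under each choice, while Mmp9 goes from -2.00 to -0.37. With WT 1 as the only WT library, the standard error rests on the spread of the KO libraries.

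Levels between genes were compared per kilobase of exon, using GENCODE M21 exon lengths. In WT, Atp6v0d2 was highest, at 491 scaled counts per kilobase (421 to 539 over the libraries), followed by Clcn7 at 282 (262 to 310) and Tnfrsf11a at 205 (183 to 228), with no overlap between these neighbours. Mmp9, at 172 (71.2 to 257), and Dcstamp, at 154 (53.7 to 231), spread over the levels of Nfatc1 at 121, Acp5 at 112 and Ctsk at 105, and those 5 could not be ordered. Mmp9 and Dcstamp also reached into the range of Tnfrsf11a. In KO the same 3 genes led, with Atp6v0d2 at 328, Clcn7 at 241 and Tnfrsf11a at 170. Nfatc1 at 129 and Ctsk at 122, which overlapped, came next, and Mmp9 at 59.3, Acp5 at 49.6 and Dcstamp at 29.2 followed, the last 3 again overlapping. Ocstamp and Oscar stayed under 3.1 scaled counts per kilobase in every library.

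The members did not share a single profile over the libraries. After each gene was centred on its own mean log2 value, the root mean square distance between Clcn7 and Tnfrsf11a was 0.082, the smallest of the 28 pairs of tested members. Acp5 and Atp6v0d2 were 0.31 apart. Mmp9 lay 0.56 from Acp5 and 0.59 from Dcstamp, while Dcstamp and Ctsk, at 1.74, were farthest apart. Against all other genes with a mean of at least 50, Dcstamp lay nearest to Ankdd1a (0.42), Slamf8 (0.45), Ksr2 (0.49), Nptx1 (0.58) and Gprc5c (0.58). Slamf8, a receptor of the SLAM family found on myeloid cells, had 131, 330 and 283 across WT and 38, 36 and 98 across KO. Acp5 lay nearest to Myrf (0.16), Galnt9 (0.18), Klhl3 (0.19), Amz1 (0.19) and Pira2 (0.19). Pira2, an activating immunoglobulin-like receptor that pairs with the FcR gamma adaptor and belongs to a family of similar genes among which reads may be split, had 64, 94 and 91 across WT and 34, 33 and 45 across KO. These distances rest on 6 libraries that share the split between WT 1 and the other WT libraries.

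The other genes of the pathway are given by lists, whose counts are read against all genes of like abundance. For this, the shares of all genes in the classes under 100, from 100 to 500, from 500 to 1000 and from 1000 scaled counts were weighted by the number of list genes in each class. This is called the share for like abundance below. The lists were chosen with earlier results of these data known, so a list share above it describes the chosen genes and is no test. The median log2 difference of all genes with a mean of at least 500 was -0.06.

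The ligand side of the pathway ran the other way from Acp5. Tnfrsf11b, which encodes osteoprotegerin, the decoy receptor for RANK ligand, had 192, 45 and 68 across WT and 441, 370 and 223 across KO. Every KO library was above every WT library, with WT 1 nearest to them. The log2 difference was 1.97 ± 0.55 (SE) with a limma adjusted p of 0.158, and KO had 3.39 times the mean WT level. Without WT 1 the difference was 2.56 ± 0.33 and was called (adjusted p = 0.0050). With WT 1 as the only WT library it shrank to 0.78 ± 0.40, with a limma adjusted p of 0.791, KO having 1.80 times the level of WT 1. Tnfsf11, which encodes RANK ligand itself, had 0, 1 and 0 across WT and 14, 10 and 3 across KO, too low to be tested. Both are products of stromal cells and osteoblasts. Of their markers, Pdgfrb had 818, 196 and 204 across WT and 1269, 1082 and 931 across KO. Cxcl12 had 400, 194 and 132 across WT and 1699, 1094 and 413 across KO. These markers, with Col1a1, Col1a2 and Fbn1, had every KO library above every WT library. Col3a1, Runx2, Sp7 and Alpl had higher KO means but overlapped between the groups, and Bglap had no entry. The part of those cells in the osteoprotegerin values was not tested.

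Of 24 genes that signal below RANK, all tested, 0 were higher and 4 lower at an unadjusted p under 0.05, with a median log2 difference of -0.011. The share lower for like abundance was 15.5%, near the 16.7% of the list. The median turned to 0.026 under cyclic loess and was -0.030 without WT 1 and -0.0064 with WT 1 as the only WT library. Without WT 1, 1 gene (Ikbkg) was called lower. The 4 were Mapk3, with 896, 977 and 905 across WT and 816, 816 and 846 across KO, the kinases Ikbkb and Mapk14, and Ikbkg, the regulatory subunit of the IKK complex. Their log2 differences lay between -0.23 and -0.13. Traf6, the adaptor that binds RANK, was named after its values were seen, and had 633, 674 and 636 across WT and 608, 620 and 614 across KO.

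Transcription factors of osteoclast differentiation included 1 higher and 7 lower of 16 at an unadjusted p under 0.05. Mitf, which acts on Acp5 and other osteoclast genes, had 833, 1113 and 1155 across WT and 701, 775 and 776 across KO, a log2 difference of -0.45 ± 0.13 (SE). Spi1, which encodes PU.1, had 872, 1018 and 943 across WT and 775, 805 and 856 across KO. The AP-1 subunit Fos, with 391, 610 and 552 across WT and 216, 203 and 441 across KO, overlapped between the groups. Its relative Fosl1 was higher, with 95, 39 and 33 across WT and 116, 103 and 123 across KO. Of all genes of like abundance 13.6% were lower and 11.3% higher. The median of the list was -0.20, or -0.14 under cyclic loess, -0.24 without WT 1 and -0.095 with WT 1 as the only WT library. Leaving out WT 1 gave 4 genes called lower and 1 higher.

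Repressors of osteoclast genes did not move as a block. Bcl6 had 964, 1047 and 1023 across WT and 776, 759 and 948 across KO, and Id2 had 453, 494 and 501 against 399, 406 and 446. The inhibitory receptor gene Lilrb4a had 1150, 1100 and 1057 across WT and 968, 1004 and 1001 across KO. Id3 was higher, with 221, 117 and 157 across WT and 314, 245 and 234 across KO. These were the 3 lower and 1 higher of 9 tested at an unadjusted p under 0.05, beside shares for like abundance of 14.9% lower and 9.78% higher. The list median was -0.10, but -0.026 under cyclic loess, and it was -0.11 without WT 1 and -0.080 with WT 1 as the only WT library. Without WT 1, 0 genes were called lower and 1 (Id3) higher.

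In the ITAM and calcium arm that feeds NFATc1, 9 of 15 tested genes were lower at an unadjusted p under 0.05 and 0 higher. The shares for like abundance were 15.8% lower and 8.31% higher. The list median was -0.17, or -0.089 under cyclic loess, -0.19 without WT 1 and -0.10 with WT 1 as the only WT library, and 2 genes were called lower without WT 1. Ppp3ca, a catalytic subunit of the phosphatase calcineurin, had 1336, 1408 and 1370 across WT and 1192, 1219 and 1234 across KO. The kinase gene Tec had 715, 886 and 800 against 619, 642 and 666. The adaptor gene Fcer1g, with 509, 560 and 529 against 471, 468 and 482, and the receptor gene Trem2, with 1535, 1897 and 1633 against 1267, 1359 and 1495, were likewise without overlap. The log2 differences of these 4 genes lay between -0.31 and -0.17.

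Along the M-CSF axis 2 genes were higher and 2 lower of 8 at an unadjusted p under 0.05, beside 8.10% higher and 22.7% lower for like abundance. The median of -0.10 became 0.0053 under cyclic loess, and it was -0.12 without WT 1 and -0.057 with WT 1 as the only WT library. Leaving out WT 1 gave 1 call higher (Csf1) and 1 lower (Cbl). Csf1, which encodes M-CSF, had 1470, 707 and 721 across WT and 1653, 1574 and 1456 across KO, with WT 1 inside the KO range. Il34, the other ligand of the M-CSF receptor, was low, with 11, 7 and 3 across WT and 15, 14 and 18 across KO. Cbl, a ubiquitin ligase that acts on the receptor, had 2694, 3180 and 2849 across WT and 2416, 2415 and 2547 across KO, and Itgam had 615, 646 and 596 against 547, 576 and 572.

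Other genes of cell fusion lay on both sides, with 3 higher and 5 lower of 10 at an unadjusted p under 0.05, where like abundance gave 6.90% higher and 21.1% lower. Their median was -0.14, or -0.038 under cyclic loess, -0.17 without WT 1 and -0.095 with WT 1 as the only WT library. Without WT 1, 2 were called higher and 2 lower. The tetraspanin gene Cd9 had 629, 707 and 675 across WT and 543, 562 and 593 across KO, and Cd47 had 1197, 1371 and 1345 against 1047, 1116 and 1117. Adam12, a metalloproteinase also made by mesenchymal cells, had 128, 19 and 34 across WT and 241, 222 and 260 across KO. Sh3pxd2a, which encodes the podosome scaffold TKS5, had 1702, 1217 and 1192 across WT and 1982, 1868 and 1930 across KO. For both, WT 1 was the WT library nearest to KO.

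Genes of attachment and the sealing zone, the ring by which an osteoclast grips bone, included 1 higher and 4 lower of 13 at an unadjusted p under 0.05. Vav3 had 815, 925 and 923 across WT and 762, 732 and 771 across KO. The integrin activator Fermt3 had 1494, 1662 and 1512 against 1295, 1340 and 1436. Tln1, which encodes talin, had 5086, 5999 and 5322 against 4425, 4502 and 4947, and Gsn, which encodes gelsolin, had 1667, 1886 and 1681 against 1511, 1508 and 1612. Like abundance gave 7.90% higher and 19.3% lower. The list median was -0.17, but -0.072 under cyclic loess, -0.21 without WT 1 and -0.067 with WT 1 as the only WT library. Without WT 1 only Vav3 was called, as lower.

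Genes of acid secretion other than the members lay on the side of Atp6v0d2 and Clcn7. All 20 tested genes had a lower mean log2 value in KO, 12 of them at an unadjusted p under 0.05, and in 14 the KO range lay wholly below the WT range. The shares over all genes with a mean of at least 500, the level of 16 of these genes, were 18.2% and 23.4%, and the shares for like abundance 17.0% and 21.9%. Tcirg1, the a3 subunit that targets the pump to the resorbing membrane, had 1564, 1960 and 1669 across WT and 1325, 1390 and 1450 across KO. The pump subunits Atp6v1h (688, 779 and 726 across WT; 612, 628 and 624 across KO), Atp6v1c1 (952, 1140 and 1030; 842, 856 and 869) and Atp6v1b2 (1506, 2001 and 1772; 1295, 1331 and 1430) did likewise. The list median was -0.19, or -0.14 under cyclic loess, -0.24 without WT 1 and -0.12 with WT 1 as the only WT library. Without WT 1, 6 of these genes were called lower. These subunits serve lysosomes in all macrophages as well as the osteoclast membrane.

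Other proteases of matrix and lysosome had 1 gene higher and 7 lower of 10 at an unadjusted p under 0.05, beside 6.44% higher and 23.8% lower for like abundance. Their median was -0.18, or -0.085 under cyclic loess, -0.21 without WT 1 and -0.11 with WT 1 as the only WT library. Leaving out WT 1 gave 3 calls lower and 1 higher (Mmp14). Ctss, which encodes cathepsin S, had 1131, 1244 and 1192 across WT and 989, 986 and 1019 across KO. The elastase gene Mmp12 had 1621, 2140 and 2094 against 1109, 1111 and 1413, and the collagenase gene Mmp13 had 454, 601 and 569 against 440, 384 and 389. Mmp14, a membrane-bound collagenase also abundant in fibroblasts, was higher, with 863, 285 and 291 across WT and 1087, 1039 and 978 across KO.

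Over all 10 lists, 10 genes were higher (7.94%) and 53 lower (42.1%) of 126 tested at an unadjusted p under 0.05, beside 8.60% and 17.4% for like abundance, and 0 had an adjusted p under 0.05 with all libraries. Their median was -0.13, or -0.072 under cyclic loess, -0.15 without WT 1 and -0.071 with WT 1 as the only WT library. Macrophage markers outside the lists had differences of -0.20 (Adgre1), -0.18 (Cd68), -0.25 (Cd14), -0.17 (Fcgr1) and -0.21 (Lyz2) with all libraries. Mertk (0.18), Mrc1 (0.06) and Cd163 (0.02) lay above 0. The part of a shift in macrophage genes at large was not tested. Without WT 1, 7 list genes were called higher and 20 lower. With WT 1 as the only WT library, 0 were called. At an unadjusted p under 0.05 that comparison left 3 lower (Lilrb4a, Atp6v1c1 and Ctss) and 3 higher (Adam12, Sh3pxd2a and Mmp14), beside 1.06% and 5.17% of all genes.

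**Figure D3:**
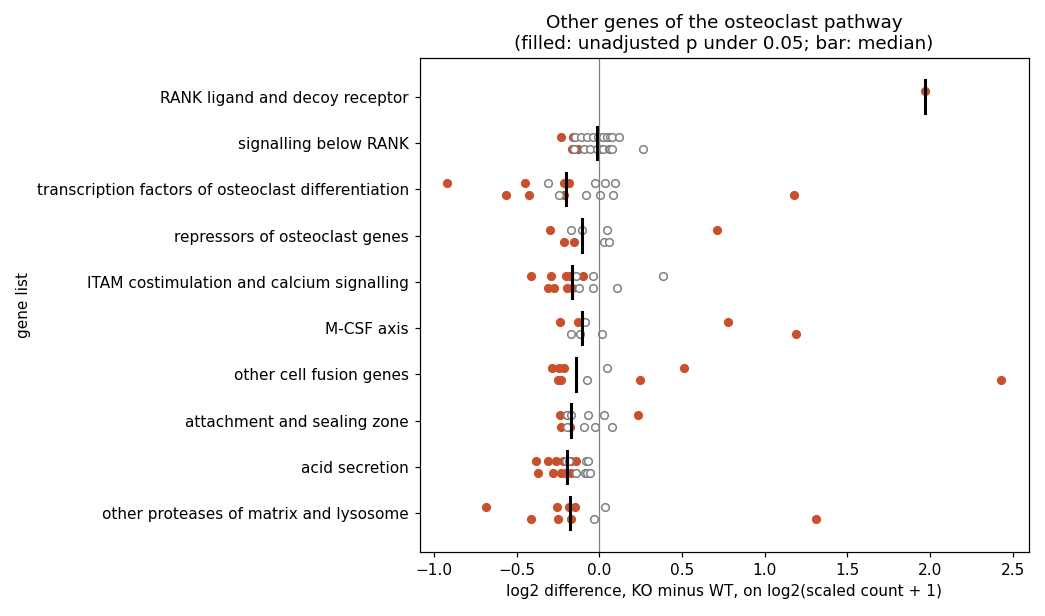
Log2 difference, KO minus WT (horizontal axis), of each tested gene in the 10 pathway lists; filled points have an unadjusted p under 0.05 and bars mark the list median. All 20 acid secretion genes lie below 0, while Tnfrsf11b and Adam12 lie near 2 or above.

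DC-STAMP is also made by dendritic cells, so their markers are given beside it. Of 10 such markers 5, among them Flt3, Ccr7 and Xcr1, had no entry in the table and Clec9a stayed under 10. The others summed with it to 1838, 2670 and 2508 in WT and to 1313, 1318 and 1733 in KO. Most of that sum came from Itgax, which macrophages also express, with 1654, 2330 and 2087 across WT and 1148, 1189 and 1528 across KO. Cd74 had 123, 264 and 312 across WT and 89, 69 and 124 across KO, whereas Zbtb46, a factor of classical dendritic cells, was higher in KO, at 51, 43 and 48, than in WT, at 37, 16 and 22. The part of such cells in the Dcstamp values was not tested.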

How the data were processed

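RNA-seq values of 6 libraries (3 WT, 3 KO) came from 1 deposited table. A stranded mRNA kit was fed 3 µg of total RNA and single reads had 72 bases, per the labels' protocols. Tools named without their roles, per the submitters' processing notes, are featureCounts 2.0.3, STAR 2.7.10a (build mm10), DESeq2 1.36.0, Trimmomatic 0.39 and Picard 2.27.4. What the authors deposited was handled as a score, that is normalized counts rounded to whole numbers: totals were nearly equal, and in WT 2 low values such as 6 never occurred. The reads behind them are unknown, which bars count models and counting intervals.

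The 13260 of 17313 genes that reached 10 in 3 or more libraries were tested two-sided on log2(value + 1) by limma 3.58.1 (R 4.3.3) with an intensity trend and genotype as its only term; p-values were adjusted over all of them by Benjamini-Hochberg. Differences on this scale understate the change of low genes. Exon lengths came from GENCODE M21 (17297 identifiers matched). Motifs were searched with Python 3.11.15.

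The members and lists were chosen with earlier results of these data known. Named are all members, Hdac2, the 4 genes with the smallest p of each list, every ligand gene, and the 5 genes nearest in profile to Dcstamp and Acp5; other names were chosen after their values were seen. On simulated data with 200 of 13260 genes changed in KO against WT, 65% of 2-fold and 90% of 4-fold changes were recovered, with 9 false calls. Those shares hold for the simulated data only. In the measured libraries the smallest limma adjusted p over all genes was 0.158. Acp5 and Dcstamp, with KO to WT ratios of 0.443 and 0.189, were not called with all libraries. The power for the measured libraries is therefore unknown, and the lack of calls does not show that such changes are absent. Alternatives covered scaling, filters, pseudocounts, trend, threshold, the replicate number as a block, and left-out libraries.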

Additional observations from a re-analysis of the deposited data

How the results depend on the processing

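No member changed direction or call when the scaling, the filter, the pseudocount, the limma trend or the threshold (adjusted p under 0.1) was altered. Under upper-quartile scaling 0 members, in place of 1, lay wholly above WT, and under cyclic loess 1 member, Nfatc1, was higher at an unadjusted p under 0.05. Cyclic loess also put 4 members, in place of 3, wholly below WT. In place of 5 members lower at an unadjusted p under 0.05, no filter gave 6, with Tnfrsf11a added. Limma without trend gave 4, without Mmp9. Leaving out each library in turn gave 0 to 5 members called lower (5 without WT 1, 0 without any other library), 3 to 6 lower at an unadjusted p, 0 to 1 higher, and 3 to 6 lying wholly below WT (6 without WT 1 and 6 without KO 3). The members' median ranged from -0.52 to -0.36 over those fits. With WT 1 as the only WT library, 2 members were lower at an unadjusted p, the median was -0.24 and Ctsk turned to -0.023. The causes were not tested. The limma adjusted p of Acp5 ranged from 0.0014 to 0.790 over the alternatives.

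With the replicate number as a block, 0 members and 0 genes were called, 5 members were lower at an unadjusted p, and the adjusted p of Acp5 was 0.134. The block lowered the standard error of every tested member except Nfatc1 and Clcn7. For Dcstamp it went from 0.76 to 0.35 and for Mmp9 from 0.55 to 0.31. The numbers did not pair the libraries throughout: deviations of same-numbered libraries correlated at 0.53, -0.36 and 0.024. WT 1 and KO 1 were the 2 of 6 libraries that matched their own number best. Rounding and unknown depth leave Ocstamp, Oscar and Tnfsf11 unresolved.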

Other observations

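Among osteoclast-linked genes too low for the test, named after their values were seen, Car2 and Siglec15 were highest in WT 2 and WT 3. Car2, the carbonic anhydrase that supplies protons to the osteoclast pump, had 4, 27 and 22 scaled counts across WT and 3, 3 and 4 across KO, so that WT 1 lay with the KO libraries. Siglec15, a sialic acid receptor that signals through an ITAM adaptor in osteoclasts, had 0, 10 and 7 across WT and 0, 1 and 5 across KO. Camk4, a calcium-dependent kinase upstream of NFATc1, ran the other way, with 6, 2 and 0 across WT and 43, 16 and 6 across KO. So did Tnfsf11, given above. Cdh1, from the list of other cell fusion genes, had 3, 0 and 1 across WT and 6, 1 and 3 across KO. The integrin gene Itgb3, a defining osteoclast marker that passed the filter, overlapped between the groups, with 501, 457 and 414 across WT and 463, 431 and 558 across KO.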
